A study of Mus musculus with 6 samples.

Results

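Pjvk encodes pejvakin, a gasdermin-family protein whose loss causes deafness, and lies on mouse chromosome 2 among genes of unrelated function. The genes described here are 9 of its nearest protein-coding neighbours: Pde11a, Rbm45, Osbpl6 and Prkra on one side and Fkbp7, Plekha3, Ttn, Ccdc141 and Sestd1 on the other. They were chosen by their place in the gene order, with earlier results of these data known, and found through the gene symbol of each probe set. All 9 were found, on 13 probe sets, out of 19938 genes on 21789 probe sets with a single symbol. Ccdc141 had 5 probe sets and each of the others had 1.

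The data were 6 microarrays of total RNA from the dissected organ of Corti, where the sensory hair cells of the cochlea sit, at postnatal day 15. The 3 arrays called knockout came from Pjvk-/- mice and the 3 called wild-type from Pjvk+/+ mice, and the background of both genotypes was mixed (C57BL/6J-129/Sv). The labels do not say which part of Pjvk was altered, whether a sample pooled several animals, or which parental strain supplied the chromosome around Pjvk in each sample. The genotype at Pjvk and the parental origin of the DNA beside it therefore cannot be told apart here. The comparison of the genotypes asks what differs in the hearing organ without pejvakin, and the neighbours show what differs around the altered gene itself.

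Genes that lie side by side are inherited together, and some share regulatory DNA, although neighbours need not act in one pathway. Where the starts of a pair of genes lie close and point away from each other, the DNA between them can serve both. In a mouse line made by gene targeting, the chromosome beside the altered gene can also carry sequence differences between the parental strains. The neighbours of Pjvk cover a wide range of roles, from RNA-binding proteins (Prkra, Rbm45) and the largest muscle protein (Ttn) to lipid-binding proteins (Osbpl6, Plekha3, Sestd1), a chaperone (Fkbp7) and an enzyme of cyclic nucleotide breakdown (Pde11a).

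In gene order Prkra and Fkbp7 flank Pjvk directly, 1 position away on either side. Osbpl6 and Plekha3 lie 2 positions away, Rbm45 and Ttn 3, Ccdc141 4, and Pde11a and Sestd1 5. Cyct, 4 positions away on the side of Prkra, is not among the 9. Prkra and Pjvk start 2246 bases apart and are read away from each other, as are Fkbp7 and Plekha3, which start 2217 bases apart (RefSeq, GRCm38.p6). Ttn and Ccdc141 lie on the same strand, with 188088 bases between their starts. The stretches shown are the 250 bases before the RefSeq start of Pjvk and of 3 neighbours: Prkra, because it is the partner that starts next to Pjvk, and Ttn and Ccdc141, because they had the largest differences among the neighbours, in opposite directions. They lie at chr2:76650023-76650272 on the plus strand for Pjvk and, on the minus strand, at chr2:76648028-76648277 for Prkra, chr2:76982548-76982797 for Ttn and chr2:77170636-77170885 for Ccdc141. Capitals mark matches on either strand to TATAAA or to CCAAT or to GGGCGG, which are the letters of 3 common promoter boxes.
Pjvk: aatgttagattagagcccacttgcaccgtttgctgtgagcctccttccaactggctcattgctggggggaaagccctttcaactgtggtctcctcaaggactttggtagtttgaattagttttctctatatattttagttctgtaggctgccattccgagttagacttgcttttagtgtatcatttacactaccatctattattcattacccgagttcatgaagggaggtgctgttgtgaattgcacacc
Prkra: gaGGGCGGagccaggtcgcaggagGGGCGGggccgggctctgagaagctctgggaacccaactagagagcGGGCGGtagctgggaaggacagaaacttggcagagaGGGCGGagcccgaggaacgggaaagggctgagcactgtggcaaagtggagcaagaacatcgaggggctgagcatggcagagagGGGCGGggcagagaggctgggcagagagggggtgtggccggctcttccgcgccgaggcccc
Ttn: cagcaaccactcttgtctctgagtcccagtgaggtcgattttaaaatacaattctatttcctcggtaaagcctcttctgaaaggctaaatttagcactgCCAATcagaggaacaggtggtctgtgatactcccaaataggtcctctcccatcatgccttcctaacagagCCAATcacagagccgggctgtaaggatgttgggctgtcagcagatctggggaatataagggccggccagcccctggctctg
Ccdc141: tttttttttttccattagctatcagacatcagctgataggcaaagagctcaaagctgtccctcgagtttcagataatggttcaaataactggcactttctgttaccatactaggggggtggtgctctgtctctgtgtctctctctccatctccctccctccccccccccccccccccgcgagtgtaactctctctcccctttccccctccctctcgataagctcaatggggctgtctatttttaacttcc

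The stretch before Prkra held 5 matches to GGGCGG and that before Ttn 2 matches to CCAAT, at 151 and 81 bases before the start. The stretches before Pjvk and Ccdc141 held none of the 3 motifs. Among the other neighbours, GGGCGG was found 6 times before Sestd1, 3 times each before Osbpl6 and Pde11a, once each before Fkbp7 and Plekha3, and not before Rbm45. No stretch of these 10 genes held TATAAA, and no matches overlapped. Of all 32851 stretches of the same length in the table, 32.7% held GGGCGG, 33.8% held CCAAT and 12.4% held TATAAA. The number of CpG dinucleotides was 3 before Pjvk, 4 before Ttn, 4 before Ccdc141, 15 before Prkra, 32 before Plekha3 and 47 before Sestd1, against a median of 6 over the table. These matches describe letters and were not tested against the signals.

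The deposited signals are log2 values per probe set, so a difference of 1 is a 2-fold change. Array medians ran from 6.66 to 6.69, and correlations between arrays from 0.9949 to 0.9969. Markers of hair cells (10 of 10 listed) had mean signals from 6.34 to 8.01 and markers of supporting cells (10 of 10) from 6.07 to 11.04, but the table has no detection calls, so presence cannot be read from these values. Over each list, the mean signal of the hair cell markers was 7.20 to 7.26 in the knockout against 7.16 to 7.20 in the wild-type, which overlap. The mean of the supporting cell markers was 8.92 to 9.0 against 8.83 to 8.89, just apart. No hair cell or supporting cell marker was called. In each of these lists the groups did not overlap for 4 of the 10 markers (40%), 1 lower and 3 higher in the knockout, against 17.8% of all probe sets. Neuron markers (6) had a median difference of 0.003 and Schwann cell markers (2 of 4 measured) of 0.02, none called. Groups did not overlap for 2 of the 6 neuron markers (33.3%), 1 lower and 1 higher, and overlapped for the Schwann cell markers. Smooth muscle markers (4) had a list mean of 7.07 to 7.21 in the knockout against 7.27 to 7.38 in the wild-type, with 3 lower and 1 higher. Groups did not overlap for 2 of these 4 (50%), all lower in the knockout. Melanocyte markers (6) had a list mean of 6.30 to 6.49 against 6.68 to 6.82, with 4 lower and 2 higher and a median difference of -0.07. Only 1 melanocyte marker, Dct, was called, at -1.86. It was also the only 1 of the 6 whose groups did not overlap (16.7%, against 17.8% of all probe sets). The lower melanocyte list mean thus rested largely on Dct. Y-linked genes, with 3 of 4 measured, had a list mean of 7.39 to 7.58 in the knockout against 7.65 to 8.05 in the wild-type, without overlap. A fit that holds this level as a covariate was one of the alternatives, and in it the level and the genotype can hardly be told apart. The part of the supporting cell, smooth muscle and melanocyte levels in the results was not tested. Xist, the RNA of X inactivation, stood at a difference of 0.28 with overlapping groups and was not called.

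The altered gene itself read low on the array. Pjvk stood at 4.42, 4.36 and 4.21 in the knockout arrays against 4.75, 5.06 and 4.96 in the wild-type arrays. Each knockout array was under each wild-type array, with 0.33 between the nearest. The difference was -0.59 (SE 0.09) and did not pass the adjusted test (limma adjusted p = 0.111), but it was called lower with an intensity trend and a robust prior in limma (adjusted p = 0.0239). Its mean signal stood at percentile 11.2 of the tested probe sets, and whether its probes lie in the altered part is not known here, so it checks the labels only in part.

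Of the 9 neighbours, 1 fell in the knockout and none rose at an adjusted p under 0.05. This was Ttn, at 1 of 13 probe sets, where 0.0321% of all tested probe sets were called lower (7) and 0% higher. The groups did not overlap for 7 of the 13 neighbour probe sets, from 4 of the 9 genes, against 17.8% of all probe sets. Of these 7, the knockout was lower in 3 (Ttn, Prkra and Rbm45) and higher in 4 (all of Ccdc141). Those 4 share a gene and are not separate observations. The background of such separation was 11.3% in the lower and 6.51% in the higher direction. An unadjusted p under 0.05 was reached by the same number, 3 lower and 4 higher, where 12.4% of all probe sets reached it, 6.74% lower and 5.69% higher. The median difference was -0.04 over the 13 probe sets and -0.01 over all probe sets.

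**Figure D1:**
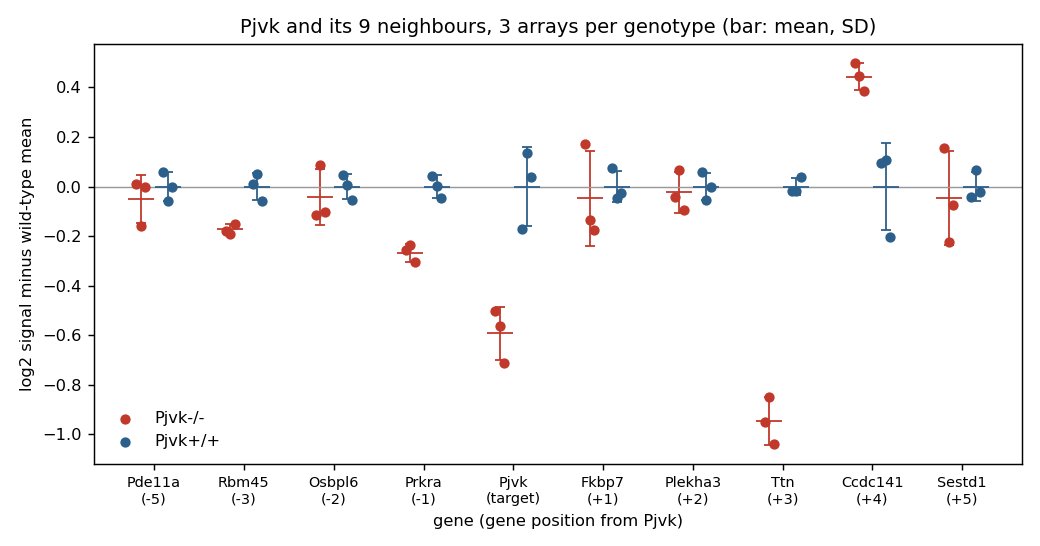
Signal of Pjvk and its 9 neighbours in each array, as the log2 difference from the wild-type mean of the same probe set, in gene order from left to right; red points are Pjvk-/- and blue points Pjvk+/+ arrays, and bars give the mean and SD of 3 arrays. Knockout points lie apart from wild-type points for Rbm45, Prkra, Pjvk, Ttn and Ccdc141 (its brightest probe set, 10484201), with the widest gap, 0.83, at Ttn.

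Ttn encodes titin, the giant elastic protein that spans the sarcomere of striated muscle from its Z-disc to its M-line. Its probe set 10483871 read 6.10, 6.20 and 6.01 in the knockout arrays. In the wild-type arrays it read 7.03, 7.03 and 7.09. The wild-type arrays agreed within 0.06 and the knockout arrays within 0.19, and the gap between the genotypes was 0.83. The means were 6.10 ± 0.10 and 7.05 ± 0.03 (SD, n = 3 each), a difference of -0.95 (SE 0.06) or 1.93-fold (limma adjusted p = 0.00228). A two-sided exact permutation p was 0.1, which 3 arrays against 3 cannot go below. In tissue RNA, fewer cells of a type and less RNA per cell cannot be told apart.

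The call held with any 1 array left out, at differences from -0.995 to -0.90 and adjusted p-values from 0.00652 to 0.0297. It was lost in a fit of all 35557 probe sets of the table, named or not (-0.95, adjusted p = 0.0605), and with Y-linked level as covariate, where the difference was as large (-0.95, adjusted p = 0.668).

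In the comparison as fitted for Ttn, no gene of a sarcomere list was called. Of 33 listed sarcomere genes 31 were measured, 15 lower and 16 higher, with a median difference of 0.02. The groups did not overlap for 14 of the 31, 6 lower and 8 higher in the knockout, against 17.8% of all probe sets. Neb, which encodes the thin filament protein nebulin and lies 134 gene positions from Pjvk, came nearest. It read 7.12, 7.16 and 7.15 in the knockout against 7.66, 7.63 and 7.54 in the wild-type, with a difference of -0.47 (limma adjusted p = 0.0589). All its knockout values lay below its wild-type values. Neb was called lower under 4 alternatives: the filters on dim probe sets at the 25th percentile (adjusted p = 0.0249) and at the median (0.00768), array medians subtracted (0.0381) and the intensity trend with a robust prior (0.00592). It was not called in the fit of the whole table (-0.47, limma adjusted p = 0.288) or with Y-linked level as covariate (-0.39, limma adjusted p = 0.908). Nebl, a relative of nebulin, stood at -0.18 and Mybpc1, a myosin-binding protein of the thick filament, at -0.23. On the other side stood Lmod3, a leiomodin of actin filament ends, at 0.29, Xirp2, an actin-binding repeat protein, at 0.25 and Mybpc2, a fast-muscle form of the myosin-binding protein, at 0.25. None of these 5 passed the adjusted test, with adjusted p-values from 0.217 to 0.319, and Mybpc1 moved to -0.11 with Y-linked level as covariate.

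Markers of skeletal muscle, which a dissection of the cochlea can carry along, were mostly higher in the knockout, unlike Ttn, but none was called. Of 15 measured markers 13 were higher in the knockout and 2 lower, with a median of 0.14. For 6 of the 15 (40%) the groups did not overlap, 5 higher and 1 lower, against 17.8% of all probe sets. Over all probe sets 9984 were higher and 11805 lower. The median signal of the list was 6.47, and dimmer probe sets leaned higher than brighter ones. Without the probe sets under the median level, 277 were higher and 1567 lower at an unadjusted limma p under 0.05, against 1240 and 1468 over all. The list was not compared with probe sets of like level. The mean over the list was 6.40 to 6.59 in the knockout arrays against 6.30 to 6.41 in the wild-type arrays, and these ranges overlap. Myh4, a fast myosin heavy chain, read 5.59, 5.61 and 5.42 in the knockout against 5.17, 5.23 and 5.17 in the wild-type, with a difference of 0.35 (adjusted p = 0.163). Pygm, the muscle glycogen phosphorylase, was the exception among the larger differences, at -0.41 (adjusted p = 0.0734). Of 7 heart muscle markers 5 were higher and 2 lower, with a median of 0.08 and none called. The markers named in this paragraph beyond the counts were picked after their values were seen. The part of muscle carried along in the Ttn difference was not tested.

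**Figure D2:**
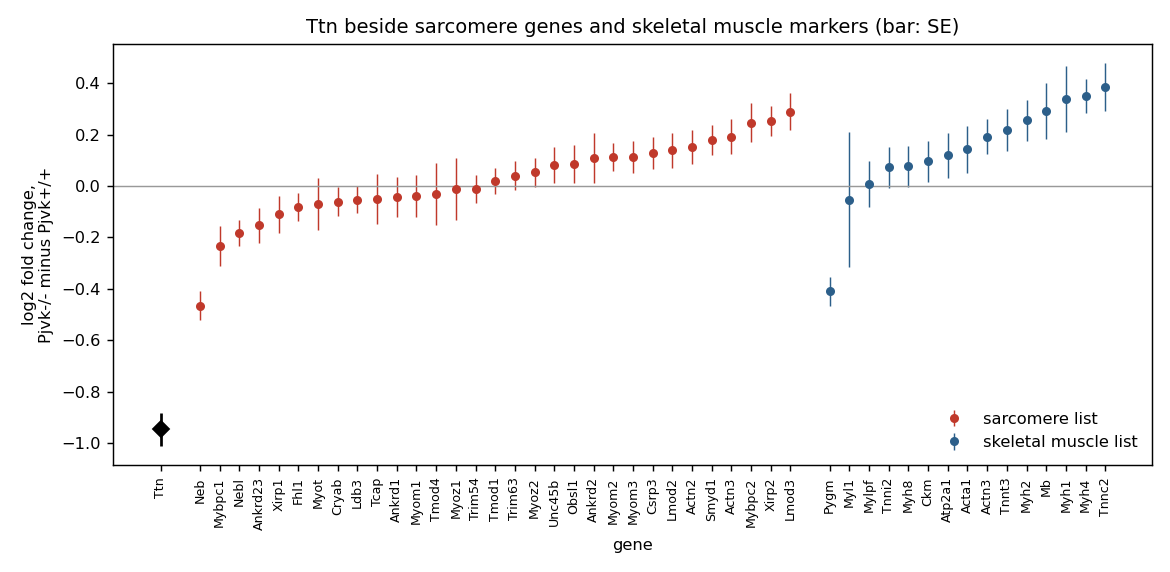
Difference in log2 signal, Pjvk-/- minus Pjvk+/+, with its SE, for Ttn (black), 31 sarcomere genes (red) and 15 skeletal muscle markers (blue), each list sorted by the difference; Actn3 is in both lists. Ttn stands at -0.95, below Neb at -0.47 and Pygm at -0.41, while the medians of the lists are 0.02 and 0.14.

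Over the 6 arrays, the profiles most like that of Ttn among 1439 probe sets with a range of at least 0.5 were those of Ms4a4c (Pearson r = 0.994), Cd59a (0.990) and Lrrtm3 (0.989). Ms4a4c encodes a membrane protein of the MS4A family, Cd59a an inhibitor of the complement attack complex and Lrrtm3 a synaptic adhesion protein. Of these only Cd59a is on the chromosome of Pjvk. These 6 arrays hold 2 groups, and any probe set that separates them cleanly will rank high.

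Ccdc141, the next gene beyond Ttn, encodes a coiled-coil protein known as CAMDI that acts in the migration of neurons. Its 5 probe sets all read higher in the knockout, by 0.22 to 0.44, and none passed the adjusted test (limma adjusted p from 0.186 to 0.459). Probe set 10484201 read 8.68, 8.63 and 8.57 in the knockout against 8.28, 8.29 and 7.98 in the wild-type, with a difference of 0.44 (SE 0.09) or 1.36-fold. The knockout arrays agreed within 0.11, while wild-type replicate 3 lay well below the other wild-type arrays.

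Probe set 10484197 read 8.39, 8.20 and 8.13 in the knockout against 8.0, 7.94 and 7.77 in the wild-type. Probe set 10484203 read 8.62, 8.37 and 8.45 against 8.26, 8.15 and 7.95. Probe set 10484207 read 8.68, 8.50 and 8.39 against 8.18, 8.24 and 8.09. In these 3 the groups did not overlap, with gaps of 0.11 to 0.15 between the nearest arrays, and wild-type replicate 3 was the lowest array each time. The dimmest probe set, 10484205, read 6.65, 7.09 and 6.71 in the knockout against 6.68, 6.63 and 6.49 in the wild-type, and here the groups overlapped. Its difference of 0.22 rested on knockout replicate 2, and without that array it was 0.08.

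Over its 5 probe sets, Ccdc141 averaged 8.14 ± 0.08 in the knockout against 7.80 ± 0.12 in the wild-type (SD, n = 3 each), a difference of 0.34 or 1.27-fold with an exact two-sided permutation p of 0.1. The per-array means were 8.20, 8.16 and 8.05 against 7.88, 7.85 and 7.66, so that all knockout arrays were above all wild-type arrays. Correlations between the probe sets over the 6 arrays ran from 0.41 to 0.97 over 10 pairs, and include the difference between the genotypes. Those of the deviations from the group means ran from -0.19 to 0.91. With an intensity trend and a robust prior in limma, probe set 10484201 was called higher (0.44, adjusted p = 0.0255). With Y-linked level as covariate the 5 differences were 0.36 to 0.70 (adjusted p from 0.908 to 0.909).

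**Figure D3:**
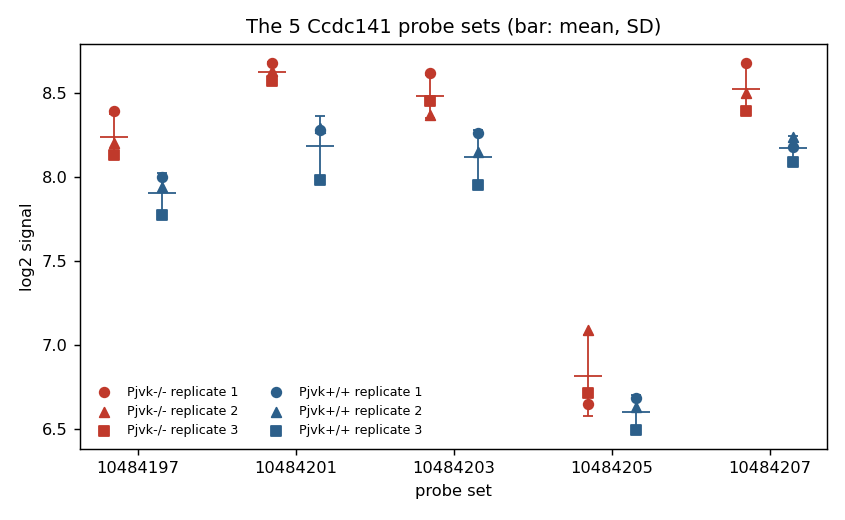
Log2 signal of the 5 Ccdc141 probe sets in each array; red marks are Pjvk-/- and blue marks Pjvk+/+ arrays, the shape gives the replicate, and bars give the mean and SD of 3 arrays. In 4 probe sets each knockout array lies above every wild-type array, and in 10484205 the groups overlap with knockout replicate 2 at 7.09.

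Prkra, the neighbour that starts beside Pjvk, encodes PACT, a double-stranded RNA-binding protein that activates the kinase PKR and partners the enzyme Dicer. Mice with mutations in Prkra have small outer ears and hearing loss. The probe set read 7.28, 7.30 and 7.23 in the knockout against 7.58, 7.54 and 7.49 in the wild-type. Every knockout array lay below every wild-type array, with a gap of 0.19 and a spread within each genotype of 0.07 and 0.09. The means were 7.27 ± 0.04 and 7.54 ± 0.05 (SD, n = 3 each), a difference of -0.27 (SE 0.06) or 1.20-fold, which did not pass the adjusted test (limma adjusted p = 0.186; exact permutation p = 0.1). It ran from -0.29 to -0.25 with 1 array left out, and stood at -0.18 with Y-linked level as covariate (limma adjusted p = 0.908).

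No listed partner of Prkra was called. Of 12 listed partners of small RNA processing and the PKR pathway all were matched to a probe set, 9 lower and 3 higher, with a median of -0.04. The probe set matched to Eif2s1, at 0.04 and among the 3 higher, belongs to a gene on chromosome 3. It may be another gene that shares an alias with Eif2s1, and the counts and medians of this list include it. The median signal of these partners was 8.375. Over all probe sets without those under the median level, the median difference was also -0.04. The groups did not overlap for 4 of the 12, against 17.8% of all probe sets, all lower in the knockout: Adar, the editor of double-stranded RNA, at -0.16, Ago3 at -0.13, Ago4 at -0.11 and Drosha at -0.07. Drosha, Dicer1 and Tarbp2 were picked after their values were seen. Adar read 8.45, 8.36 and 8.41 in the knockout against 8.55, 8.62 and 8.53 in the wild-type (adjusted p = 0.336). Dicer1 stood at 0.01 and Tarbp2, a relative of Prkra in the Dicer complex, at -0.01. Eif2ak2, which encodes PKR itself, stood at -0.15 with overlapping groups, and at 0.11 with Y-linked level as covariate, where Ago3 stood at -0.08 and Ago4 at -0.06.

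Rbm45, which encodes an RNA-binding protein of the developing nervous system, was the other separated neighbour. It read 8.86, 8.85 and 8.89 in the knockout against 9.05, 9.09 and 8.98 in the wild-type. The knockout arrays lay within 0.04 of each other and 0.09 below the nearest wild-type array. The difference was -0.17 (SE 0.06) or 1.13-fold and did not pass the adjusted test (limma adjusted p = 0.310; exact permutation p = 0.1). It ran from -0.20 to -0.15 with 1 array left out. The Rbm45 difference was -0.13 with Y-linked level as covariate (limma adjusted p = 0.925) and -0.13 with quantile normalization (limma adjusted p = 0.481).

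The 5 other neighbours did not separate the genotypes. Their differences lay between -0.05 and -0.02, with adjusted p-values from 0.774 to 0.898, and in each of them the groups overlapped. Fkbp7, which flanks Pjvk on the side away from Prkra, encodes a peptidyl-prolyl isomerase of the endoplasmic reticulum. It read 8.66, 8.35 and 8.31 in the knockout against 8.56, 8.44 and 8.46 in the wild-type, so knockout replicate 1 was the highest of all 6 arrays and the other knockout arrays were the lowest. Its difference of -0.05 had an SE of 0.09.

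Plekha3 encodes FAPP1, a protein that binds a phosphoinositide of the Golgi apparatus. It read 9.82, 9.93 and 9.77 in the knockout against 9.92, 9.81 and 9.86 in the wild-type (-0.02, SE 0.06), interleaved. Fkbp7 and Plekha3, the other pair that is read away from a common stretch, thus had differences within their standard errors.

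Osbpl6, a member of the oxysterol-binding protein family, read 9.42, 9.62 and 9.43 in the knockout against 9.58, 9.54 and 9.48 in the wild-type (-0.04, SE 0.07). Knockout replicate 2 was the highest array and the other knockout arrays were the lowest. Sestd1, a phospholipid-binding protein with spectrin repeats, read 9.08, 8.70 and 8.85 against 8.88, 8.99 and 8.90 (-0.05, SE 0.09), with the knockout arrays spread over 0.38 and the wild-type arrays over 0.11.

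Pde11a encodes a phosphodiesterase that breaks down cyclic AMP and cyclic GMP. It read 6.17, 6.00 and 6.16 in the knockout against 6.22, 6.10 and 6.16 in the wild-type (-0.05, SE 0.07), and 1 array of each genotype had the same value. The sign of each of these 5 small differences turned under at least 1 alternative.

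The wider neighbourhood of 25 gene positions to either side of Pjvk held 50 protein-coding genes, of which 45 were measured on 57 probe sets. Without the 9 neighbours these were 36 genes on 44 probe sets, and none was called. Cwc22, a splicing factor gene 7 positions away, had 8 of these probe sets, of which 7 had identical values. The groups did not overlap for 9 of the 44 probe sets (20.5%), or 9 of 38 (23.7%) with identical probe sets of a gene counted once, where 17.8% of all probe sets did not overlap by either count. Of these 9 probe sets 7 were lower and 2 higher in the knockout. The median difference was -0.03 over the 44 and -0.04 over the 38.

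Zfp804a, a zinc finger gene 22 positions beyond Pjvk on the side of Ttn, had the smallest unadjusted p of these. It read 9.67, 9.78 and 9.76 in the knockout against 10.09, 10.01 and 9.92 in the wild-type (-0.27, limma adjusted p = 0.217), without overlap. It was called lower with the intensity trend and robust prior (adjusted p = 0.0365), and stood at -0.17 with Y-linked level as covariate. Itprid2 stood at -0.23, Ppp1r1c, an inhibitor subunit of protein phosphatase 1, at -0.22, and Itga4, the integrin alpha 4 subunit, at -0.20, all on that side and without overlap.

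On the side of Prkra, Nfe2l2, which encodes the antioxidant transcription factor NRF2, lies 10 positions from Pjvk. It read 8.46, 8.54 and 8.40 in the knockout against 8.76, 8.63 and 8.73 in the wild-type (-0.24, adjusted p = 0.242), again without overlap. Lnpk, which shapes the endoplasmic reticulum, stood at -0.19 and Atp5g3, a subunit of the ATP synthase, at -0.14. Agps, a peroxisomal enzyme of ether lipid synthesis, stood at 0.11 with overlapping groups. Near the Hoxd cluster of body-patterning genes, Hoxd1 stood at 0.20, Hoxd12 at 0.26, Hoxd8 at 0.20 and Evx2 at 0.25, of which Hoxd1 and Hoxd12 did not overlap. These 4 were named for their small unadjusted p. The other measured Hoxd genes, outside the naming rule, had overlapping groups. Hoxd9 stood at -0.10, Hoxd3 at -0.01, Hoxd13 at 0.07, Hoxd11 at 0.09, Hoxd4 at 0.10 and Hoxd10 at 0.15. None of these passed the adjusted test. With Y-linked level as covariate several of the differences in this neighbourhood were smaller, at -0.13 for Itprid2, -0.08 for Ppp1r1c, -0.05 for Atp5g3, 0.09 for Hoxd1, 0.09 for Hoxd12 and 0.11 for Evx2, and Lnpk stood at 0.001.

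**Figure D4:**
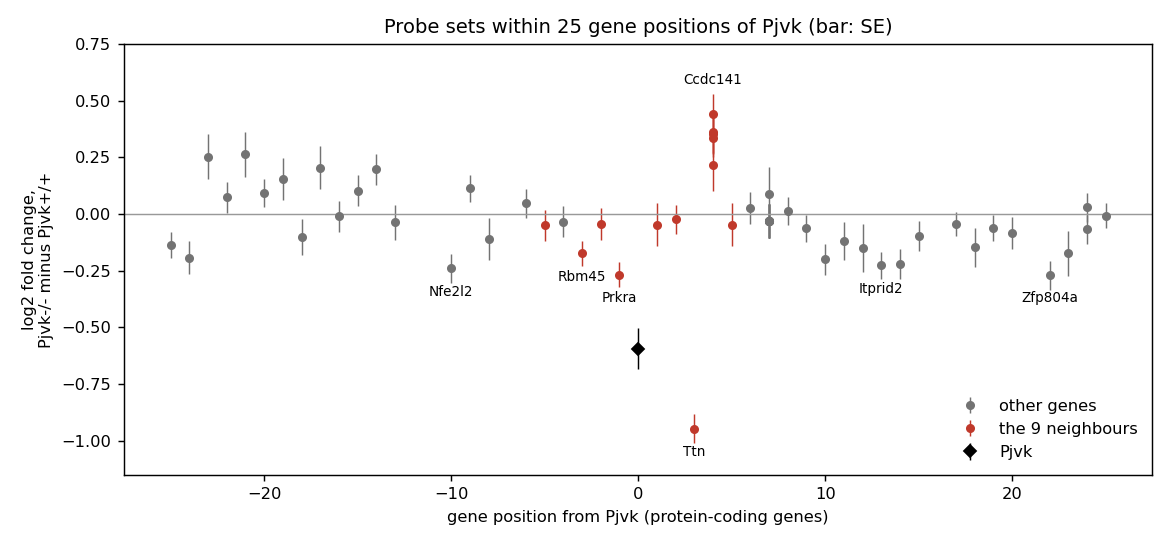
Difference in log2 signal, Pjvk-/- minus Pjvk+/+, with its SE, for each probe set within 25 protein-coding gene positions of Pjvk; red points are the 9 neighbours, grey points other genes and the black diamond is Pjvk. Ttn at -0.95 and 4 of the 5 Ccdc141 probe sets, at 0.34 to 0.44, lie outside the range of the grey points, -0.27 to 0.26, and the fifth, at 0.22, lies inside it.

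The share of probe sets that separated the genotypes was higher near Pjvk than farther out. In the nearest band this came through the 9 neighbours, and 4 of its 9 separated probe sets were of the same gene, Ccdc141. The band at 11 to 25 positions held none of the neighbours described. The groups did not overlap for 30.0% of the 30 probe sets at 1 to 10 positions, 25.9% of 27 at 11 to 25, 19.2% of 167 at 26 to 100, 18.6% of 582 beyond 100 and up to 400 and 17.7% of 928 on the rest of the chromosome, against 17.8% of 19857 on other chromosomes. The first of these bands held the 9 neighbours, and without them it was 11.8% of 17. With identical probe sets of a gene counted once, these 2 shares were 37.5% of 24 and 18.2% of 11. Medians lay between -0.06 and 0.003 in the 5 bands. The number called was 1 at 1 to 10 positions, which was Ttn, none at 11 to 25, none at 26 to 100, 2 beyond 100 and up to 400 and none farther. These shares were not tested against each other.

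The called genes farther out on the chromosome were Kcnj3 and Cd59a. Kcnj3, whose product is a potassium channel subunit opened by G proteins, lies 124 positions away. It read 6.39, 6.22 and 6.30 in the knockout against 6.92, 6.99 and 6.82 in the wild-type (-0.61, limma adjusted p = 0.0438). Its call was lost with any 1 array left out, at adjusted p-values from 0.0644 to 0.234, in the fit of the whole table (adjusted p = 0.288) and with Y-linked level as covariate (-0.51, adjusted p = 0.908). Cd59a, 360 positions away, read 8.25, 8.28 and 8.32 against 9.37, 9.34 and 9.39 (-1.08, adjusted p = 2.99e-04), and its call was lost with Y-linked level as covariate (adjusted p = 0.0949).

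**Figure D5:**
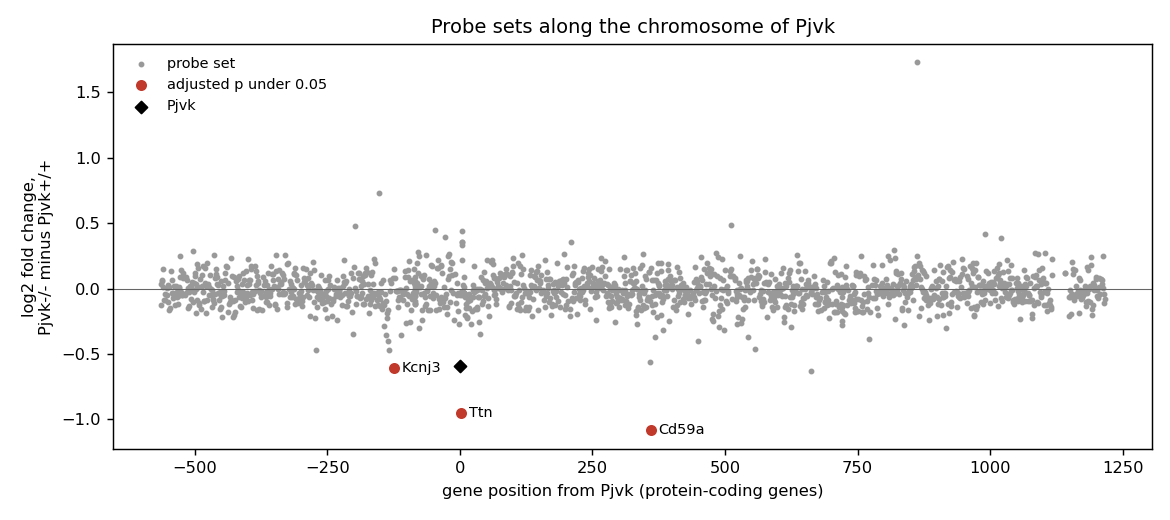
Difference in log2 signal, Pjvk-/- minus Pjvk+/+, of every probe set with a position in the protein-coding gene order of the chromosome of Pjvk; red points passed an adjusted p under 0.05 and the black diamond is Pjvk. Of the 3 red points Ttn lies 3, Kcnj3 124 and Cd59a 360 positions from Pjvk, and all 3 are negative.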

How the data were processed

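Total RNA of 6 organ of Corti samples was hybridised to Affymetrix mouse ST arrays after labelling from 100 ng, per the labels' protocols. The deposited values are log2 signals of 35557 probe sets, made by the authors with Affymetrix Expression Console, per the submitters' processing notes, in a version not given there. The sources used here do not give the summarization, the normalization or the genome build. The arrays' medians were nearly equal, so no further normalization was applied. Differences still leaned lower among brighter probe sets. The median difference was -0.01 over all probe sets and -0.04 without those under the median level. With quantile normalization 1078 probe sets were lower and 1204 higher at an unadjusted limma p under 0.05, against 1468 and 1240 as deposited. Small differences therefore moved with the normalization.

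Names come from an old annotation of the platform: 21789 probe sets carried 1 symbol, 1621 several and 12147 were not listed. Of those with 1 symbol, 21698 matched the RefSeq gene table (GRCm38.p6) by gene identifier, which gave current symbols and the gene order. Symbols and aliases were both matched. Gene positions count protein-coding genes, and for the gene lists the brightest probe set of a gene was used.

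The genotype comparison used lmFit and eBayes of limma 3.58.1 (R 4.3.3) on the 21789 probe sets, with Benjamini-Hochberg adjustment over all of them and calls at an adjusted p under 0.05. Residual degrees of freedom were 4 and prior ones 4.59, and the small number of arrays limits the precision. Nothing in the labels says that samples came from separate animals, so p-values speak only of how these samples vary, possibly for technical reasons. In data simulated for this comparison with 21789 probe sets, 33 of 50 changes of 1.41-fold, 47 of 50 of 1.68-fold and 50 of 50 of 2-fold were recovered, with 12 false calls among 192. The real comparison had 7 calls. An adjusted p under 0.05 is easier to reach where more probe sets are called, so these shares can overstate recovery in the real data.

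The members, the gene lists and the naming rule were chosen with earlier results of these data known. Named were Pjvk, all 9 neighbours, up to 12 further genes within 25 positions with the smallest unadjusted p, called genes within 400 positions, up to 6 sarcomere genes, up to 4 partners of Prkra and the 3 profiles most like each called neighbour. Single genes named outside this rule are said to be so, or are given with the list counts. The alternatives were filters on dim probe sets, 3 normalizations, 1 probe set per gene, the whole table, another variance prior, Y-linked level as covariate, the replicate number as a block, leaving out each array and, chosen after seeing the data, counting identical probe sets of a gene once. Same-numbered samples did not deviate together (correlations 0.08, 0.02 and -0.01).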

Additional observations from a re-analysis of the deposited data

How the results depend on the processing

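Ttn stayed negative under every alternative that tested it, from -0.995 to -0.90. Its call was lost in the fit of the whole table (-0.95, adjusted p = 0.0605), with Y-linked level as covariate (-0.95, adjusted p = 0.668) and with the replicate block (-0.95, adjusted p = 0.0589), each of which left 0 called probe sets among the neighbours and 0 at 1 to 10 positions. The filter at the median level removed Ttn, so the neighbours and that band had 0 calls there. The replicate numbers did not pair the samples, and 3 of 6 samples were closest to their own number. Over the table the number called lower, 7, became 19 with the filter at the 25th percentile, 40 with that at the median, 18 with array medians subtracted, 1 in the fit of the whole table, 87 with the intensity trend and robust prior, 0 with the covariate (640 lower and 534 higher at an unadjusted p under 0.05) and 1 with the block. It was 2 to 6 with 1 array left out, at 2 without wild-type replicate 1 or 2 and 3 without knockout replicate 2 or 3. The number called higher, 0, became 2 and 3 with the filters and 9 with the trend, and was 0 to 1 with 1 array left out. With the trend, 1 Ccdc141 probe set was called higher (0.44). Kcnj3 lost its call with the block (-0.61, adjusted p = 0.171). Counting identical probe sets of a gene once, an alternative chosen after seeing the data, left 7 called lower and 0 higher.

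Calls by position changed as follows. At 1 to 10 positions there were 2 with the trend. At 11 to 25 there was 1 with the trend. At 26 to 100 there was 1 with the trend and 1 with the median filter. Beyond 100 and up to 400 there were 4 with each filter and with medians subtracted, 8 with the trend, 1 in the fit of the whole table, 1 with the block, 0 with the covariate and 1 to 2 with 1 array left out. On the rest of the chromosome there were 1 and 2 with the filters and 4 with the trend. The median at 1 to 10 positions was 0.10 with the covariate, and that of the rest of the chromosome was -0.0467 with the median filter.

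The small differences changed sign as follows. With quantile normalization Fkbp7 was at 0.0017 and Plekha3 at 0.0208, and with cyclic loess Plekha3 was at 0.018. With the covariate Osbpl6 was at 0.0392, Fkbp7 at 0.1352, Plekha3 at 0.0444, Sestd1 at 0.0024, Lnpk at 0.001 and Eif2ak2 at 0.11. With 1 array left out Plekha3 ran from -0.0683 to 0.0117, Fkbp7 from -0.1567 to 0.0183, Pde11a from -0.08 to 0.005 and Sestd1 from -0.1483 to 0.0417. The cause of these changes was not tested. Prkra, Rbm45 and Ccdc141 kept their direction under all alternatives.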

Other observations

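A stretch of chromosome 2 well away from Pjvk, on the side of Prkra, held several lower genes. It was noticed after the values were seen and was not tested. At 150 to 120 positions from Pjvk, 24 genes were measured on 24 probe sets, and the groups did not overlap for 10 of them (41.7%), all lower in the knockout, against 17.8% of all probe sets. Their median difference was -0.10. Besides Kcnj3 at 124 positions and Neb at 134, Tnfaip6, a secreted hyaluronan-binding protein, lies at 136 and Lypd6b at 143. Tnfaip6 read 7.22, 7.35 and 7.22 in the knockout against 7.70, 7.61 and 7.68 in the wild-type (-0.40, limma adjusted p = 0.111). Lypd6b read 7.13, 7.0 and 7.08 against 7.35, 7.40 and 7.32 (-0.29, adjusted p = 0.186). In this stretch only Kcnj3 was called.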
